A study of Mus musculus with 24 samples.

Results

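Neural progenitor cells (NPC) were compared with the mouse embryonic stem cells (mESC) from which they were derived, in 4 lines that carry a knock-in of the Hdh (Htt, huntingtin) CAG repeat. The comparison holds 16 of the 24 RNA-seq libraries of the series, chosen by their labels alone. These are 2 mESC and 2 NPC libraries for each of the lines named Q20, Q50, Q92 and Q111 after the length of the repeat. The Q92 line is given as 89 CAG in the submitters' culture notes and in the names of its data columns. The remaining 8 libraries are wild type (WT) and Htt knockout (KO) cells of both types, of which the 4 WT libraries are used for a comparison at the end.

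All 4 knock-in lines are described as heterozygous, so each culture also carried 1 normal allele. The mESC were grown with serum and leukemia inhibitory factor (LIF) on gelatin with a feeder layer of irradiated CF-1 mouse embryonic fibroblasts, and no step that removes the feeder cells before RNA extraction is described. For the NPC, mESC were plated without LIF in serum-free N2B27 medium for 7 days, then moved to laminin and kept as passaged cultures in NS medium with FGF and EGF. The 2 cell types therefore differed in medium, substrate, feeder layer and time in culture as well as in identity. Whether a line is 1 clone, and whether its replicates came from separate cultures, was not stated in the labels, so p-values measure the spread between these libraries. The NPC of each line descend from the mESC of that line, and how many times each line was differentiated was not stated.

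Embryonic stem cells keep the capacity to form all tissues of the body through a network of transcription factors built around Oct4 (encoded by Pou5f1), Sox2 and Nanog, which LIF acting through STAT3 helps to maintain in mouse cells. When LIF and serum are withdrawn, Fgf and Notch signalling lead a large share of the cells to a neural fate. Cells then expanded in EGF and FGF grow as adherent neural stem cells that resemble radial glia, the progenitors from which neurons, astrocytes and oligodendrocytes arise.

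Between 58546211 and 77717251 reads per mESC library and between 48525333 and 84353617 per NPC library were recovered from the deposited values. Of 15572 genes present in both tables, 13989 passed the filter of 1 CPM (reads of a gene scaled to the reads counted in its library) in at least 2 libraries. Libraries of some groups stood apart. Both Q20 NPC libraries held RNA of stem cell genes at levels not seen in the other 6 NPC libraries, and the 4 mESC libraries numbered 2 held more RNA of NPC genes than those numbered 1, which is set out below with the genes it touches. Genes with 1 annotated exon (119 of those tested) were unstable. Of these, 32.8% differed by at least 8-fold between the 2 libraries of at least 1 group. Over all 16 libraries, 47.1% of them had a library at 0 beside another at 5 CPM or more, against 2.95% of other genes. That share also counts genes at 0 in 1 cell type or line. In all, 218 genes (1.56%) differed by more than 8-fold between the 2 libraries of at least 1 group, among them Gja1 and Spcs3. Sox2, the third factor of the stem cell network and itself a gene with 1 exon, was in neither table.

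Over the 4 lines together, 9659 genes (69% of those tested) differed between NPC and mESC at an adjusted p under 0.05 in limma with the line as block. Of these, 4969 (35.5%) were higher and 4690 (33.5%) lower in NPC, with a median log2 change over all genes of 0.04. A change of at least 2-fold was found for 2780 genes upward (19.9%) and 2312 downward (16.5%). These counts treat the 2 libraries of a group as separate. With 1 mean value per line and cell type, 7743 genes were called, and 4947 with a change of at least 2-fold. The 8 libraries of one cell type lay wholly above the 8 of the other for 4895 genes (35%). With a background this high, a gene list is read below against these shares. All changes are differences of log2(CPM + 1), given as NPC minus mESC ± the standard error, and understate the change of genes with low values. Under upper-quartile scaling, the median of all genes moved from 0.04 to -0.14 and the split of calls to 4165 higher and 5638 lower, so small changes are relative to the scaling. Levels are given as the median of the 8 libraries of a cell type with the lowest and the highest in parentheses, or as the values of both libraries of a line. Htt itself (chromosome 5, 34761740 to 34912534, GRCm38), the gene that carries the repeat, was 110.3 CPM (93.5 to 155) in mESC and 163 CPM (135 to 188) in NPC. The ranges overlapped, and Htt rose by 0.49 ± 0.10 (limma adjusted p = 0.000342), with no call for a difference between lines (adjusted p = 0.277).

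The largest rise was that of Fabp7 (brain lipid-binding protein, a fatty acid carrier of radial glia). It was 3.33 CPM (0.157 to 72.3) in mESC and 1556 CPM (1209 to 4060) in NPC, a change of 8.49 ± 0.86 (limma adjusted p = 5.88e-07). All NPC libraries stood above all mESC libraries, and the 4 mESC libraries numbered 2 stood above the 4 numbered 1. Sparcl1, a secreted matrix protein of astroglia, was 0.894 CPM (0.324 to 19.7) in mESC and 664 CPM (188 to 1709) in NPC (7.70 ± 0.54, adjusted p = 1.15e-08). Ptprz1, a receptor phosphatase of glial progenitors, rose from 3.23 CPM (1.21 to 29.8) to 1007 CPM (819 to 1784), a change of 7.69 ± 0.49 (adjusted p = 3.95e-09), and its secreted ligand pleiotrophin (Ptn) from 3.51 CPM (1.25 to 33.2) to 995 CPM (817 to 1406), a change of 7.40 ± 0.44 (adjusted p = 1.9e-09). A receptor and its ligand were thus both among the 4 largest rises.

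The other 6 of the 10 largest rises were also genes of glia and their progenitors or of neural membranes. The acyl-CoA synthetase Acsbg1 rose by 6.95 ± 0.43, the metabotropic glutamate receptor Grm5 by 6.84 ± 0.46, and the endothelin receptor Ednrb by 6.78 ± 0.69. The matrix proteoglycan brevican (Bcan) rose by 6.73 ± 0.35, the neuronal adhesion protein Astn1 by 6.70 ± 0.35, and the membrane glycoprotein Gpm6b by 6.67 ± 0.39 (adjusted p between 5.25e-10 for Bcan and 6.62e-07 for Ednrb). Ednrb varied among NPC, with 35.9 and 34.3 CPM in Q92 against 394 to 884 in the other lines. Sparcl1 also varied, with 1709 and 1458 CPM in Q20 NPC against 188 and 221 in Q92 NPC. None of the 10 was called for a difference between lines, with adjusted p from 0.121 to 0.786. The standard errors of their line changes were wide, from 0.72 for Bcan to 1.86 for Fabp7. A missing call thus does not show that these rises were alike in all lines.

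Largest among the falls was Tdgf1 (Cripto, a co-receptor for Nodal). Its level in mESC was 1067 CPM (280.4 to 1174), with Q20 replicate 1 and Q111 replicate 2 lowest, and in NPC 0.0716 CPM (0 to 0.692), a change of -9.34 ± 0.31 (adjusted p = 7.16e-12). Cdh1 (E-cadherin, which joins epithelial cells) was 467 CPM (376 to 583) in mESC and 0.0300 CPM (0 to 13.2) in NPC (-7.90 ± 0.43, adjusted p = 7.42e-10), the Q20 NPC libraries being the highest of the NPC. Fbxo15, a known target of Oct4 and Sox2, had the smallest standard error of the 10 falls: it was 307 CPM (193 to 386) in mESC and 0.307 CPM (0.239 to 0.409) in NPC, a change of -7.81 ± 0.13 (adjusted p = 2.91e-14).

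Germ cell genes were among the largest falls too. Morc1, needed for transposon silencing in male germ cells, fell by 7.52 ± 0.19, and Rnf17, a Tudor-domain protein of germ cells, by 7.47 ± 0.16. The zinc finger gene Rex2 fell by 7.32 ± 0.15, the adhesion molecule Pecam1, found on stem cells as well as on endothelium, by 6.90 ± 0.14, and the zinc finger gene Zfp980 by 6.72 ± 0.15 (adjusted p at most 8.58e-13). Rex2 and Zfp980 belong to a large family of similar zinc finger genes, and reads could be split between copies.

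Promoters are shown for the core stem cell genes Nanog and Pou5f1, for Fabp7, the gene with the largest rise, and for Dnmt3b. The falls of Nanog, Pou5f1 and Dnmt3b were all called for a difference between lines. Each run is 250 bases before to 50 after the RefSeq transcript start on GRCm38.p6, on the strand of the gene, and lies at chr6:122707239-122707538 for Nanog, chr17:35505782-35506081 for Pou5f1, chr10:57784673-57784972 for Fabp7 and chr2:153649199-153649498 for Dnmt3b, all on the plus strand. Capitals mark matches on either strand to the octamer core ATGCAAA (bound by POU factors), the core ACAATG (bound by SOX factors), the core TGGGAA (bound by RBPJ, the transcription factor of Notch signalling) and the GC box GGGCGG (bound by SP factors). A match is a description of letters and not of binding.
Nanog: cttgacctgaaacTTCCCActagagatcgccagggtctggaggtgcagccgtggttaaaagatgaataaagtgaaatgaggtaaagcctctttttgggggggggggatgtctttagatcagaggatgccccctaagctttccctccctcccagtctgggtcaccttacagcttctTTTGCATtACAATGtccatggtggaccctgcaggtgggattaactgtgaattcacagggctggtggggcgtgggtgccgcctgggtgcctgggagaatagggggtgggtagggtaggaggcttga
Pou5f1: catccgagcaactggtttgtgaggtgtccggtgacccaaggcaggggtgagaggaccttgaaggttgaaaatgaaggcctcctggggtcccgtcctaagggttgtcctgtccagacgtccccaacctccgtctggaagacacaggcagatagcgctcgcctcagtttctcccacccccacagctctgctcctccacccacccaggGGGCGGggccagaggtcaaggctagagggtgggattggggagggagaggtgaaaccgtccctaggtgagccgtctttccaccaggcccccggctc
Fabp7: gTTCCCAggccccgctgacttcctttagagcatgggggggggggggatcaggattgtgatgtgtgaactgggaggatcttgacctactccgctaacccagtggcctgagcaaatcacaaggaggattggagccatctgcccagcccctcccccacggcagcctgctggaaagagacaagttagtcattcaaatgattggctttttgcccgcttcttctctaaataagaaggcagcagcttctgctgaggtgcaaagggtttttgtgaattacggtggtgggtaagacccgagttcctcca
Dnmt3b: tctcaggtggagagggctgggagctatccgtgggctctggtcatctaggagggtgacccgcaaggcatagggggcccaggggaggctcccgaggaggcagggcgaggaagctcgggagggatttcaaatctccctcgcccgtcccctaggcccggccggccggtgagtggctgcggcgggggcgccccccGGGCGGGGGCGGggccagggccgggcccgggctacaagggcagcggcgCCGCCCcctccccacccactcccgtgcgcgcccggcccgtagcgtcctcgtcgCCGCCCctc

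In the Nanog run the octamer core, on the minus strand, lay next to a SOX core, at positions -75 and -67 from the start. The Pou5f1 run held 1 GC box, the Fabp7 and Nanog runs 1 RBPJ core each near their far ends (positions -249 and -237), and the Dnmt3b run 4 GC boxes. GC content was 54.3% with 4 CpG for Nanog, 62.7% with 11 for Pou5f1, 54.0% with 6 for Fabp7 and 76.0% with 30 for Dnmt3b. Over the 10858 tested genes with such a run, genes at least 2-fold higher in NPC in all 4 lines (1064 with a run) had a median of 21 CpG, those 2-fold lower in all 4 (842) 14, and all genes 20. Runs with under 5 CpG made up 13.8% of the lower group, 7.71% of the higher group and 7.51% of all. The octamer core was in 4.28% of the lower group and 3.26% of all, the SOX core in 6.41% and 6.72%, the RBPJ core in 23.1% of the higher group and 23.0% of all, and the GC box in 58.1% of the lower group, 64.8% of the higher group and 64.8% of all.

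All 21 tested genes of a list of stem cell factors and their companions fell, with a median of -5.40, beside 33.5% of all genes called lower. Members such as Tdgf1 and Fbxo15, below 1 CPM in all NPC, passed the filter through mESC alone, so this count is a description. The same holds for members of other lists that were near 0 in 1 cell type. Another 11 of the stem cell list, among them Zfp42 (Rex1) and Dppa3, were in the mESC table alone and were not tested. For 20 of the 21, beside 35% of all genes, the cell types did not overlap, the exception being Trim71. The factors themselves were high in every mESC library. Pou5f1, which encodes Oct4, was 416 CPM (289 to 568) in mESC, and Nanog 411 CPM (242 to 624). In NPC, Pou5f1 was 91.2 and 89.0 CPM in the Q20 libraries and at most 0.242 in the other 6, and Nanog was 13.2 and 13.96 CPM in Q20 and at most 0.795 elsewhere. Pou5f1 fell by 6.99 ± 0.76 (adjusted p = 1.27e-06) and Nanog by 7.197 ± 0.46 (adjusted p = 3.99e-09). Esrrb, an orphan nuclear receptor of the network, fell by 5.40 ± 0.20 from 124 CPM (64.3 to 181), and Klf4, a reprogramming factor, by 2.94 ± 0.34 from 63.4 CPM (20.0 to 123).

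In the Q20 NPC libraries part of the list stayed higher than in the other NPC. The summed level of the 21 genes was 426 and 442 CPM in the Q20 NPC libraries against 46.8 to 96.9 in the other 6 and 3250 to 5755 in mESC. The median gene stood at 3.89% of its mean in the mESC of its own line in Q20, against 0.135% in Q50, 0.118% in Q92 and 0.114% in Q111. Among the members, 9 were called for a difference between lines, beside 21.4% of all genes tested. Lin28a, an RNA-binding protein that blocks let-7 maturation, was 71.7 and 70.4 CPM in Q20 NPC and at most 0.161 in the rest, so that it fell by 0.88 in Q20 and by 6.78 to 7.26 in the other lines (adjusted p of the difference = 2.47e-06). Sall4, a zinc finger factor, fell by 1.797 in Q20 against 7.30 to 7.70 in the others, and the adhesion molecule Epcam by 3.15 against 6.63 to 7.65. Other members were low in Q20 NPC too. Fbxo15 was 0.239 and 0.240 CPM there, 0.066% of its mean in Q20 mESC, against 0.112% to 0.135% in the other lines. Dppa2, at most 0.289 CPM, and Tfcp2l1, at most 0.654, stood at 0.318% and 0.431% in Q20 but at most 0.0405% and 0.075% in the other lines. A smaller share of cells with these transcripts and fewer transcripts in each cell cannot be told apart in such bulk libraries, here or in any result below. Without the Q20 line all 21 members still fell and the number called for a difference between lines was 2.

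**Figure D1:**
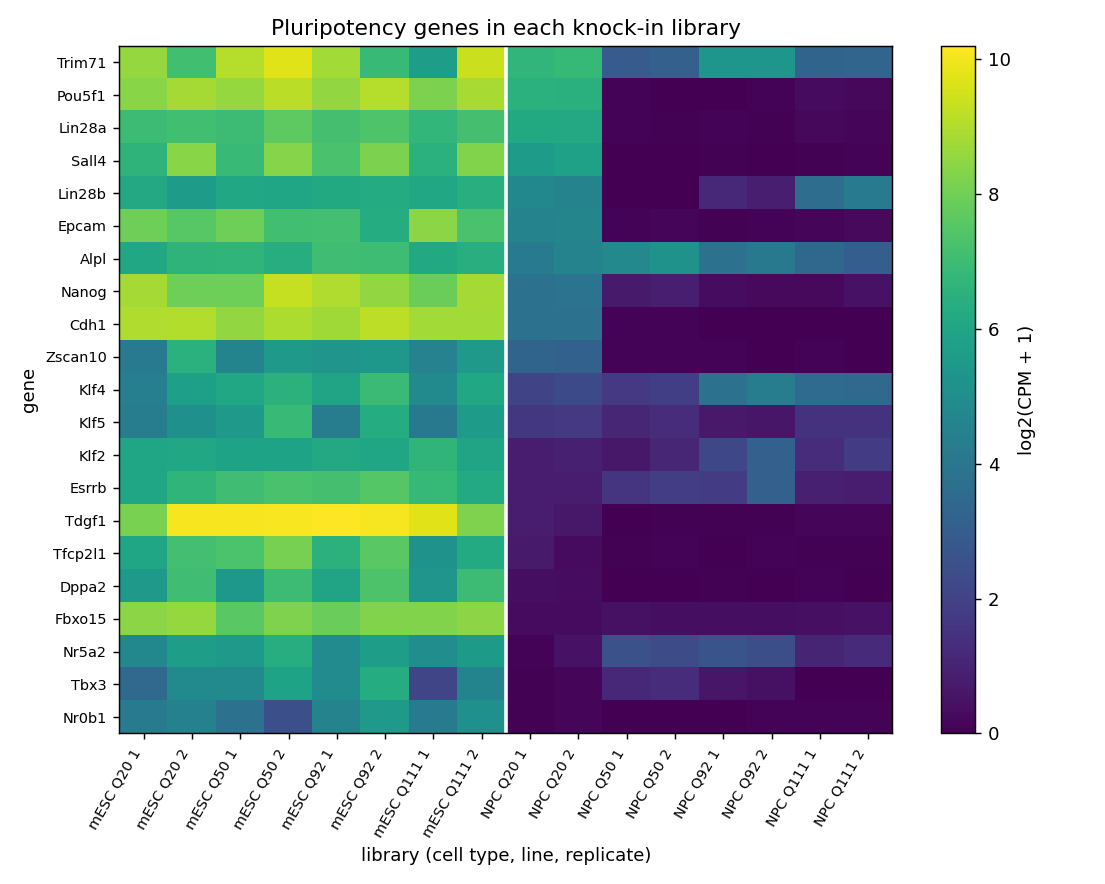
Levels of the 21 tested stem cell genes (rows) in each of the 16 libraries (columns, 8 mESC then 8 NPC by line), as log2(CPM + 1) on the colour scale. The 8 mESC columns stand above the NPC columns for every gene but Trim71, and in NPC the Q20 columns keep visible levels of Pou5f1 (91.2 and 89.0 CPM), Lin28a, Sall4 and some others while Fbxo15 and Dppa2 are near 0 in all 8.

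Of the 23 tested markers of neural progenitors and radial glia, 20 rose and none fell, with a median of 3.33, beside 35.5% of all genes called higher. Olig2, a basic helix-loop-helix factor of ventral progenitors and the oligodendrocyte lineage, was 0.169 CPM (0 to 3.29) in mESC and 135 CPM (31.6 to 642) in NPC (6.34 ± 0.47, adjusted p = 2.05e-08). Sox9, a factor of glial fate, was 0.229 CPM (0.0761 to 1.35) in mESC and 56.1 CPM (41.0 to 69.4) in NPC, a change of 5.34 ± 0.19 (adjusted p = 1.06e-11), and N-cadherin (Cdh2), the cadherin of neural epithelium, rose from 13.4 CPM (6.39 to 24.0) to 274 CPM (196 to 328), a change of 4.21 ± 0.22 (adjusted p = 6.63e-10). None of these overlapped between cell types. The intermediate filament Nestin (Nes), the classic marker of such cultures, rose from 76.2 CPM (42.1 to 162) to 803 CPM (358 to 1267), by 1.39 in Q20 and 3.28 to 4.59 in the other lines (adjusted p of the difference = 0.00124). Pax6, a factor of dorsal progenitors, was already at 14.5 CPM (5.66 to 25.2) in mESC and rose to 33.0 CPM (26.4 to 38.1), a change of 1.15 ± 0.27 (adjusted p = 0.00159).

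Members outside these rises were Sox1, Prom1 and Hopx. Sox1, a progenitor factor encoded in 1 exon, was 4.70 CPM (0 to 12.2) in mESC and 6.67 CPM (0 to 20.0) in NPC and was not called (adjusted p = 0.927). The stem cell surface protein Prom1 changed by 0.45 ± 0.46 (adjusted p = 0.392) and the homeodomain protein Hopx by 0.77 ± 0.34 (adjusted p = 0.0581), neither past the threshold. Sox21 rose but also has 1 exon, with libraries at 0 in both cell types. Ntrk2, the receptor for BDNF, and Ttyh1, a membrane protein of neural stem cells, had the smallest p for a difference between lines in this list. Ntrk2 rose by 4.66, 6.23 and 4.61 in Q20, Q50 and Q111 but by 1.18 in Q92, where its NPC level was 10.7 and 11.1 CPM (adjusted p = 0.000170). Ttyh1 rose by 4.89 and 4.53 in Q20 and Q50 and by 2.14 and 1.74 in Q92 and Q111 (adjusted p = 0.000289). Without Q92 the call for Ntrk2 was lost (adjusted p = 0.0833). Sox3, Nr2e1 and Pou3f3, also progenitor factors, were in the NPC table alone.

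The mESC libraries numbered 2 held measurable RNA of the genes that rose most. Taking the 10 largest rises as a percentage of their mean in NPC, the median was 3.53% in mESC Q20 replicate 2 and 1.38% in Q92 replicate 2. It was 0.460% and 0.376% in the second libraries of Q111 and Q50, and 0.112% to 0.222% in the 4 libraries numbered 1. The 10 genes lay close together within a library: 2.51% to 6.40% in Q20 replicate 2 and 0.869% to 1.90% in Q92 replicate 2. The source of this RNA was not tested. Summed levels of lists that rose in NPC went both ways. The 23 progenitor markers summed to 355 to 521 CPM in the mESC libraries numbered 1 and 495 to 894 in those numbered 2. For the 12 astroglial markers these sums were 482 to 793 and 218 to 415 CPM. Without the 4 mESC libraries numbered 2, 20 progenitor markers rose and 1 fell, and without the Q20 line 18 rose.

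**Figure D2:**
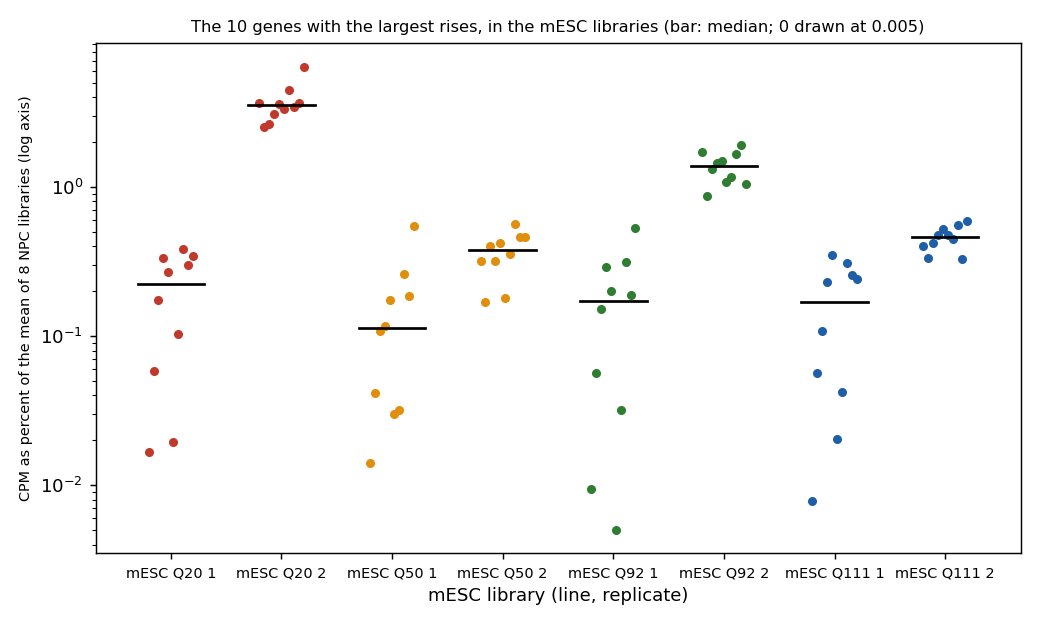
Level of each of the 10 genes with the largest rises in each knock-in mESC library, as a percentage of its mean over the 8 NPC libraries (log axis, points are genes, bars are medians, values of 0 are drawn at 0.005). By the median, the second library stands above the first in each line, most in Q20 (3.53% against 0.222%) and Q92 (1.38% against 0.171%).

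Neuronal markers moved in both directions. Of 16 neuronal markers, 5 rose and 5 fell (median -0.12, which turned to 0.10 under quantile scaling). These shares are near those of all genes, 35.5% higher and 33.5% lower. Map2, a microtubule protein of dendrites that neural stem cell cultures can also express, was 11.4 CPM (7.16 to 34.1) in mESC and 807 CPM (607 to 1040) in NPC (5.89 ± 0.26, adjusted p = 9.31e-11), without overlap. Gap43, a growth cone protein, rose from 15.6 CPM (6.65 to 21.6) to 167 CPM (52.4 to 417), a change of 3.41 ± 0.42 (adjusted p = 4.36e-06). The tubulin Tubb3 fell from 110.4 CPM (59.2 to 207) to 8.98 CPM (6.61 to 123), a change of -2.91 ± 0.42 (adjusted p = 2.01e-05), with overlapping ranges and the highest NPC levels in Q20 (33.0 and 123 CPM). The synaptic genes Snap25 and Gad2 stayed at 1.21 CPM (0.843 to 2.05) and 0.208 CPM (0 to 2.28) in NPC.

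Of 12 astroglial markers, 9 rose, beside 35.5% of all genes, and 1, clusterin (Clu), fell, with a median of 3.05. The change of Clu differed by line, from 0.02 in Q20 to -3.25 in Q92 (adjusted p of the line difference = 0.000301). Aqp4, the water channel of astrocyte endfeet, was 0.175 CPM (0.0422 to 1.32) in mESC and 24.0 CPM (2.78 to 256) in NPC (4.24 ± 0.67, adjusted p = 5.01e-05), and the glutamate transporter Slc1a2 rose from 0.417 CPM (0.0422 to 6.05) to 124 CPM (13.2 to 522), a change of 5.67 ± 0.61 (adjusted p = 1.16e-06). Lines split here: the summed level of the 12 markers was 5037 to 7210 CPM in Q20 and Q50 NPC and 1078 to 1485 in Q92 and Q111 NPC. Gfap, the astrocyte filament, was 43.6 and 28.4 CPM in Q20, 75.5 and 36.1 in Q50, 0.181 and 0.0930 in Q92 and 2.79 and 2.43 in Q111 NPC (adjusted p of the line difference = 6.04e-05). Aldh1l1, a folate enzyme used to mark astrocytes, rose by 4.36 and 4.21 in Q20 and Q111 and by 1.48 in Q50, and fell by 0.71 in Q92 (adjusted p = 2.31e-05). The gap junction gene Gja1 differed by more than 8-fold between replicates of several groups and was not called (adjusted p = 0.216).

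Of 10 markers of the oligodendrocyte lineage, 7 rose and 2 fell (median 1.97), beside 35.5% and 33.5% of all genes. Pdgfra, the receptor that marks oligodendrocyte precursors, was 8.23 CPM (4.15 to 10.8) in mESC. Its NPC levels were 164 and 206 CPM in Q20, 199.7 and 142 in Q50, 94.8 and 96.3 in Q111 and 1.27 and 2.19 in Q92, the last below every mESC library. Gpr17, a receptor of committed precursors, reached 553 and 498 CPM in Q20 NPC, against 1.38 to 53.3 in the other 6 (4.31 ± 0.81 over all lines, adjusted p = 0.000247). The myelin regulator Myrf fell by 1.94 ± 0.31 from 20.7 CPM (9.75 to 30.1) (adjusted p = 6.03e-05). Without Q92, the line difference of Pdgfra was not called (adjusted p = 0.131).

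Fibroblast genes were examined since the mESC grew on fibroblast feeders. Of 20 tested, 6 rose (3 without Q20) and 7 fell, beside 35.5% and 33.5% of all genes. Of the 20, 17 were called for a difference between lines, beside 21.4% of all genes. The summed level was 703 to 984 CPM in mESC. It was 1824 and 1845 CPM in Q50 NPC, 1064 and 964 in Q20, 614 and 639.7 in Q111 and 435 and 455 in Q92 NPC, so the list was not highest in mESC throughout. Thbs1 (thrombospondin, a secreted adhesive protein) fell from 169 CPM (104 to 267) to 2.07 CPM (1.15 to 17.0), a change of -5.34 ± 0.26 (adjusted p = 2.75e-10) and the smooth muscle actin Acta2 from 45.7 CPM (30.9 to 99.1) to 1.799 CPM (0.444 to 8.57), a change of -4.08 ± 0.28 (adjusted p = 7.9e-09). The defining collagen gene Col1a2 was at 26.3 CPM (17.8 to 32.8) in the knock-in mESC against 0.812 and 1.90 CPM in the 2 WT mESC libraries, and among the WT NPC it was 0.649 and 0.554 CPM. The share of feeder RNA in each library and its part in these results were not tested.

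Most genes of other early lineages fell. Of 11 tested, 9 fell over all lines, beside 33.5% of all genes, and none rose (median -1.69). Under quantile scaling 8 fell and 1 rose. The signalling gene Nodal, active in the early embryo, fell from 73.3 CPM (50.1 to 139) to 0.155 CPM (0.0401 to 0.732), a change of -6.03 ± 0.21 (adjusted p = 1.16e-11) and its inhibitors Lefty2 and Lefty1 by 6.14 ± 0.31 and 5.93 ± 0.45, next to the fall of the Nodal co-receptor Tdgf1. Krt8, a keratin of simple epithelia, fell by 5.64 ± 0.21 from 69.3 CPM (40.6 to 179.9). Gata4 and Gata6, factors of primitive endoderm, stood at 2.97 CPM (1.69 to 8.86) and 2.18 CPM (1.03 to 4.18) in mESC and fell by 1.94 ± 0.25 and 1.55 ± 0.17. The gene T was not called over all lines (adjusted p = 0.352), and its change differed by line. It changed by 1.07 in Q20, 0.90 in Q92, -0.38 in Q50 and -0.62 in Q111 (adjusted p of the difference = 0.00176).

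Among 12 germ cell genes 11 fell, beside 33.5% of all genes, with a median of -3.89. For a line difference 6 were called, beside 21.4% of all genes. Tuba3a, a testis tubulin, fell by 5.77 ± 0.17, Tex19.1, a regulator of retrotransposons, by 5.47 ± 0.37, Piwil2, a piRNA-binding protein, by 5.45 ± 0.22, and the RNA helicase Ddx4 (Vasa) by 5.12 ± 0.18 from 46.7 CPM (31.3 to 60.1) to 0.356 CPM (0.0268 to 0.830). The exception was Tdrkh, a Tudor protein of mitochondria, which rose from 10.6 CPM (5.93 to 16.7) to 44.4 CPM (38.5 to 52.1), a change of 2.03 ± 0.14 (adjusted p = 6.65e-09). Xlr3a, on the X chromosome and one of a family of near-identical copies between which reads could be split, fell by 6.38 in Q111 and had a change of -0.47 in Q50 (adjusted p of the difference = 7.26e-05).

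The signalling systems that differ between the media were examined by their parts. For the LIF and STAT3 route, 6 of 14 genes rose and 4 fell, beside 35.5% and 33.5% of all genes. The median was 0.18, and 4 rose and 4 fell under upper-quartile or quantile scaling. None was called for a line difference, beside 21.4% of all genes. The LIF receptor Lifr was not called, at 118 CPM (71.5 to 156) in mESC and 129 CPM (101 to 168) in NPC (0.18 ± 0.12, adjusted p = 0.199), and its partner Il6st rose by 0.32 ± 0.09. The kinase Jak2 rose from 23.8 CPM (16.2 to 33.8) to 186 CPM (164 to 209), a change of 2.87 ± 0.15 (adjusted p = 6.58e-10) and Stat3 itself from 81.5 CPM (48.4 to 126) to 258 CPM (243 to 294), a change of 1.76 ± 0.22 (adjusted p = 5.35e-06), without overlap. Of the known STAT3 targets in the list, 4 fell: the kinase Pim1 by 3.38 ± 0.26, Bcl3 by 2.95 ± 0.38, Pim3 by 2.24 ± 0.28 and the feedback inhibitor Socs3 by 2.13 ± 0.48 (adjusted p from 2.77e-08 to 0.00115). Myc, another target, rose by 1.92 ± 0.41 (adjusted p = 0.000699).

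For EGF and FGF signalling, 11 of 20 genes rose and 2 fell (median 1.43), beside 35.5% and 33.5% of all genes. Egfr, the receptor for the EGF in the NPC medium, was 18.4 CPM (11.2 to 35.5) in mESC and 545 CPM (317 to 959) in NPC (4.72 ± 0.26, adjusted p = 1.05e-09), without overlap. It rose by 3.17 in Q20 and 5.00 to 5.64 in the other lines (adjusted p of the difference = 0.000545), and without Q20 that difference was not called (adjusted p = 0.327). Its relative Erbb4 rose from 0.194 CPM (0 to 1.85) to 76.6 CPM (46.1 to 200.1), a change of 5.91 ± 0.26, Erbb2 rose by 1.51 ± 0.12, and Erbb3 fell by 4.53 ± 0.22 from 48.6 CPM (28.9 to 91.8). Of the FGF receptors, Fgfr3 rose by 3.55 ± 0.37 and Fgfr1 by 1.35 ± 0.15, Fgfr2 was not called (-0.44 ± 0.33, adjusted p = 0.251), and Fgfr4, at 2.56 CPM (1.59 to 3.14) in mESC, fell by 0.78 ± 0.25 with a call that was lost in several alternative analyses. By line, Fgfr4 changed by 0.60 in Q50 and by -1.51 to -0.79 in the others (adjusted p of the difference = 0.00288). Of the feedback genes, the phosphatase Dusp6 rose by 1.91 ± 0.22 and the Ras inhibitors Spry2, Spred1 and Spry4 by 1.91 ± 0.34, 1.81 ± 0.24 and 1.81 ± 0.76, while Dusp4, Spry1 and Spred2 were not called. The ETS factor Etv1 rose by 2.37 ± 0.23, while Etv5, at 394 CPM (217 to 539) in mESC and 428 CPM (286 to 805) in NPC, was not called (0.39 ± 0.21, adjusted p = 0.108).

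Notch signalling, which keeps neural progenitors from maturing, had 10 of 17 genes higher and 2 lower (median 0.64). Of all genes, 35.5% were higher and 33.5% lower. Among ligands, Dll1 rose from 7.54 CPM (4.04 to 12.2) to 105 CPM (43.7 to 153), a change of 3.46 ± 0.19 (adjusted p = 1.04e-09), Dll3 by 1.99 ± 0.32 and Jag1 by 0.91 ± 0.14, while Jag2 fell from 34.6 CPM (16.2 to 46.1) to 1.21 CPM (0.403 to 9.41), a change of -3.39 ± 0.31 (adjusted p = 1.72e-07). Among receptors, Notch1 rose from 46.1 CPM (42.1 to 66.5) to 280.2 CPM (223 to 353), a change of 2.49 ± 0.09 (adjusted p = 1.42e-11), Notch3 by 1.11 ± 0.29 and Notch2 by 0.56 ± 0.10. The transcription factor of the route, Rbpj, fell from 184 CPM (108 to 427) to 59.8 CPM (34.1 to 115), a change of -1.67 ± 0.30 (adjusted p = 0.000161), with overlap. Of the target genes, Hey1 rose by 2.56 ± 0.29, Hes1 by 0.64 ± 0.22 and the progenitor gene Hes5 from 0.499 CPM (0 to 1.15) to 14.2 CPM (0.914 to 64.9), a change of 3.06 ± 0.44 (adjusted p = 2.34e-05).

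Chromatin regulators moved in both directions: 9 of 30 rose and 14 fell (median -0.22), beside 35.5% and 33.5% of all genes. The de novo DNA methyltransferase Dnmt3b and the 5-methylcytosine oxidase Tet1 fell by 4.59 ± 0.55 and 3.12 ± 0.23, while Tet3 rose from 10.3 CPM (5.25 to 17.1) to 79.4 CPM (47.1 to 103), a change of 2.76 ± 0.18 (adjusted p = 5.78e-09). Dnmt3a and the maintenance enzyme Dnmt1 were not called, at 0.03 ± 0.20 and 0.04 ± 0.16. Of the Polycomb complex that methylates histone H3, Eed and Suz12 fell by 1.54 ± 0.21 and 1.43 ± 0.16, its partners Mtf2 and Jarid2 by 2.71 ± 0.07 and 2.67 ± 0.25, and its enzyme Ezh2 was not called (-0.19 ± 0.12, adjusted p = 0.176). Cbx7, the Polycomb reader of stem cells, fell by 3.20 ± 0.45 and its relative Cbx8 rose by 2.30 ± 0.20.

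Subunits of the BAF remodelling complex changed in both directions. The ATPase Smarca2 (Brm) rose from 4.16 CPM (3.36 to 6.60) to 73.6 CPM (40.0 to 115), a change of 3.73 ± 0.20 (adjusted p = 5.93e-10), Smarcc2 (BAF170) from 26.1 CPM (22.3 to 32.6) to 223 CPM (203 to 247), a change of 3.04 ± 0.09 (adjusted p = 3.12e-12), and the PHD finger subunit Dpf3 by 3.34 ± 0.24. Smarca4 (Brg1), the alternative ATPase, rose by 0.61 ± 0.09. Actl6a, the subunit of dividing cells, fell by 1.05 ± 0.12, and its neuronal counterpart Actl6b was below the filter. Rest, the repressor of neuronal genes, fell from 443 CPM (276 to 848) to 102 CPM (83.0 to 129.7), a change of -2.09 ± 0.18 (adjusted p = 1.08e-07).

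Of 60 regulators of splicing and RNA processing, 15 rose and 23 fell (median -0.12), beside 35.5% and 33.5% of all genes. Upper-quartile scaling gave 12 higher and 32 lower. The largest rises were those of regulators known from neural tissue and muscle: Nova1 from 3.57 CPM (1.98 to 5.56) to 53.0 CPM (22.6 to 155), a change of 3.67 ± 0.36 (adjusted p = 4.64e-07), Celf2 by 3.59 ± 0.22, Rbm24 by 3.40 ± 0.36, Qk by 2.71 ± 0.17 and Mbnl1 by 2.13 ± 0.18. The epithelial regulators Esrp2 and Rbm47 fell by 2.57 ± 0.15 and 3.07 ± 0.15. Ptbp1, the repressor of neuronal exons, fell from 425 CPM (341 to 486) to 247 CPM (177 to 310.0), a change of -0.81 ± 0.12 (adjusted p = 3.24e-05), while its relative Ptbp2 rose from 63.7 CPM (47.6 to 81.7) to 143 CPM (125 to 156), a change of 1.16 ± 0.12 (adjusted p = 6.91e-07), in both without overlap. Srrm4, which drives neuronal microexons, was at 3.57 CPM (0.574 to 6.35) in mESC and 0.197 CPM (0 to 2.35) in NPC. Among abundant general factors, Srsf3 fell by 0.44 ± 0.09, and Hnrnpa1 was not called (-0.21 ± 0.09, adjusted p = 0.0625).

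Of 30 cell cycle genes, 12 rose and 14 fell (median -0.32), beside 35.5% and 33.5% of all genes. For a line difference 15 were called, beside 21.4% of all genes. Cyclins of the G1 phase moved apart: Ccne1 fell by 1.88 ± 0.19, and Ccnd2 rose from 27.7 CPM (20.0 to 75.7) to 354 CPM (119.9 to 825), a change of 3.35 ± 0.30 (adjusted p = 1.59e-07). Ccnd1 was 191 CPM (88.1 to 297) in mESC, 132 and 143 CPM in Q20 NPC and 1684 to 2278 in the other NPC libraries, so that its change was -0.81 in Q20 and 3.58 to 3.66 in the others (adjusted p of the difference = 0.000236). Of the 6 inhibitors of cyclin-dependent kinases in the list 5 rose, such as Cdkn2c by 3.89 ± 0.24, Cdkn1a by 1.66 ± 0.28 and Cdkn1b by 1.66 ± 0.32, and the sixth, Cdkn1c, fell by 2.29 ± 0.28. The cell cycle factor Mybl2 fell from 349 CPM (247 to 399) to 26.6 CPM (13.5 to 54.5), a change of -3.58 ± 0.18 (adjusted p = 3.56e-10). The replication genes Mcm2 and Pcna and the mitotic kinase Cdk1 were among those called for a line difference: their changes were -1.72, -1.47 and -1.32 in Q20 and -0.38, 0.40 and 0.15 in Q111.

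For energy and amino acid metabolism, 13 of 31 genes rose and 14 fell (median -0.40, 10 and 17 under upper-quartile scaling). Of all genes, 35.5% were higher and 33.5% lower. The glucose transporter Slc2a3 fell from 1361 CPM (969.6 to 2027) to 37.2 CPM (26.4 to 177), a change of -4.89 ± 0.30 (adjusted p = 2.71e-09) and its relative Slc2a1 from 401 CPM (306 to 548) to 47.6 CPM (24.99 to 148), a change of -2.81 ± 0.24 (adjusted p = 1.18e-07). Among glycolytic enzymes Pfkp fell by 3.35 ± 0.27, hexokinase Hk2 by 1.63 ± 0.28, Gapdh by 1.26 ± 0.13 and Pkm by 1.05 ± 0.14, while the isoenzymes Hk1 and Pfkm rose by 0.84 ± 0.21 and 1.27 ± 0.15. Ckb, brain creatine kinase, rose from 174 CPM (76.4 to 469) to 5791 CPM (3183 to 7126), a change of 4.90 ± 0.32 (adjusted p = 4.75e-09), and Ppargc1a, a coactivator of mitochondrial genes, from 0.106 CPM (0.0514 to 1.06) to 26.0 CPM (15.5 to 38.3), a change of 4.44 ± 0.18 (adjusted p = 3.56e-11). The serine synthesis enzyme Phgdh rose by 1.44 ± 0.26. Levels of the 31 genes summed to 19430 to 23250 CPM in the mESC libraries numbered 1 and 14190 to 14560 in those numbered 2, so the replicates differed here as well.

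**Figure D3:**
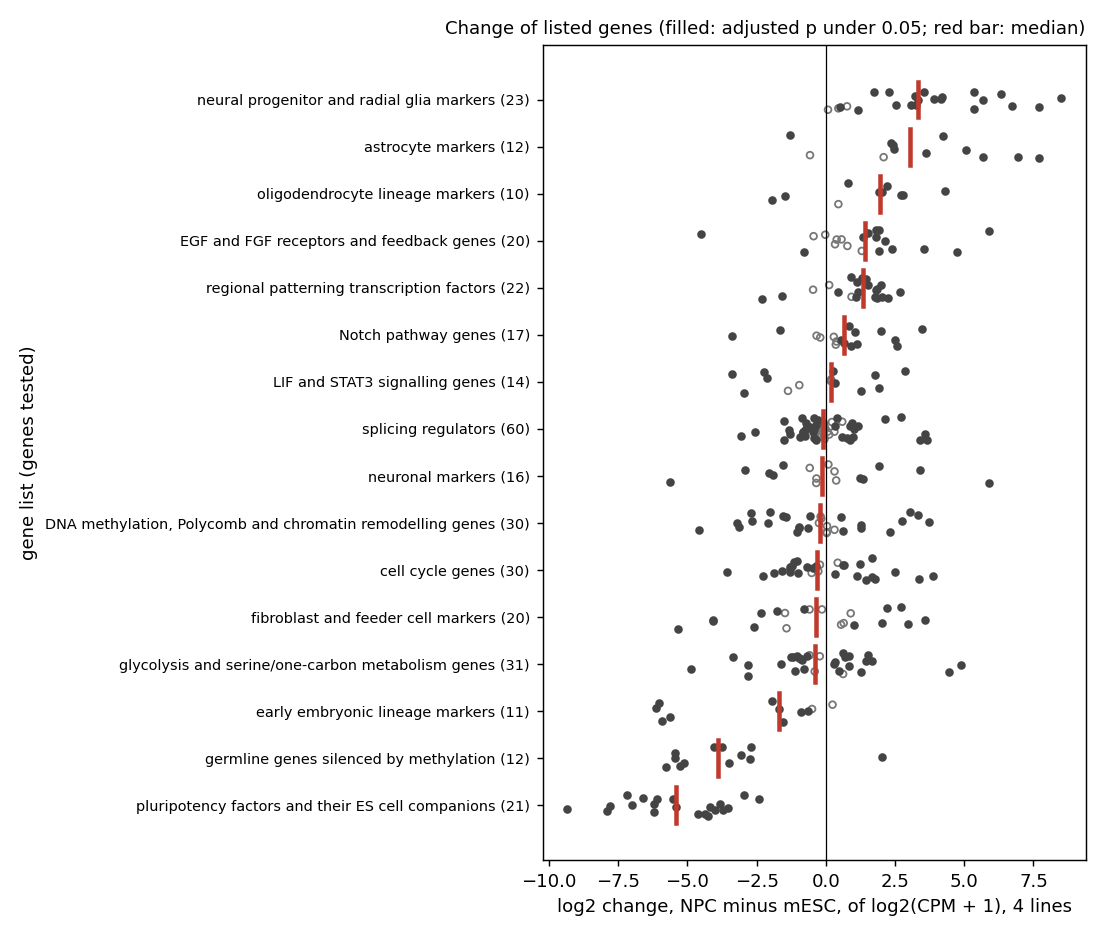
Log2 change (NPC minus mESC, x axis) of each tested member of the 16 gene lists (y axis, number of genes tested beside each name); filled points passed the adjusted p threshold of 0.05 and red bars are list medians. The stem cell list (median -5.40) and the germ cell list (-3.89) lie on the left, the progenitor list (3.33) on the right, and the splicing, LIF and cell cycle lists around 0.

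Patterning genes, which give neural progenitors a position along the body axis, often differed by line. Of 22 tested, 16 were called for a line difference, beside 21.4% of all genes. Of the 22, 17 rose and 2 fell (median 1.34), beside 35.5% and 33.5% of all genes. Irx5 and Irx3, factors of the spinal cord and hindbrain, rose in all lines, Irx5 from 0.643 CPM (0.380 to 1.06) to 9.58 CPM (7.69 to 14.04), a change of 2.66 ± 0.13 (adjusted p = 1.94e-10), and Otx2, a factor of stem cells and forebrain, fell by 2.32 ± 0.45. The Hox genes, which mark hindbrain and spinal cord, depended on the line. Hoxb9, a posterior Hox gene, changed by 5.13 in Q92 and 2.01 in Q20, and by -0.77 and -0.33 in Q50 and Q111 (adjusted p = 3.5e-06), with 73.5 and 71.8 CPM in Q92 NPC. The anterior Hoxa5 was 21.3 and 17.99 CPM in Q92, 6.29 and 6.96 in Q20, 5.31 and 6.47 in Q50 and 0.175 and 0.155 in Q111 NPC. The forebrain and midbrain factor Otx1 changed by 2.90 in Q111 and -0.02 in Q92 (adjusted p = 1.54e-05). Emx1, a factor of the cerebral cortex, was below the filter. Without Q20, 11 patterning genes rose and 3 fell, and without the 4 mESC libraries numbered 2, 13 rose and 2 fell.

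The test for a change that differs by line called 2990 genes (21.4%), of which 1476 also changed by 2-fold over all lines and 763 were not called over all lines. The line farthest from the other 3 was Q20 for 1101 of them, Q111 for 667, Q92 for 625 and Q50 for 597. Without Q20 the count was 1474, and without the 4 mESC libraries numbered 2 it was 6152. A block for the replicate number within each cell type, which takes out the difference between the first and second mESC libraries, gave 6551. A gene or list member without a call for a line difference is thus not shown to change alike in all lines. Repeat length, line and differentiation run cannot be told apart with 1 line for each length, and no trend over the repeat length was fitted.

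**Figure D4:**
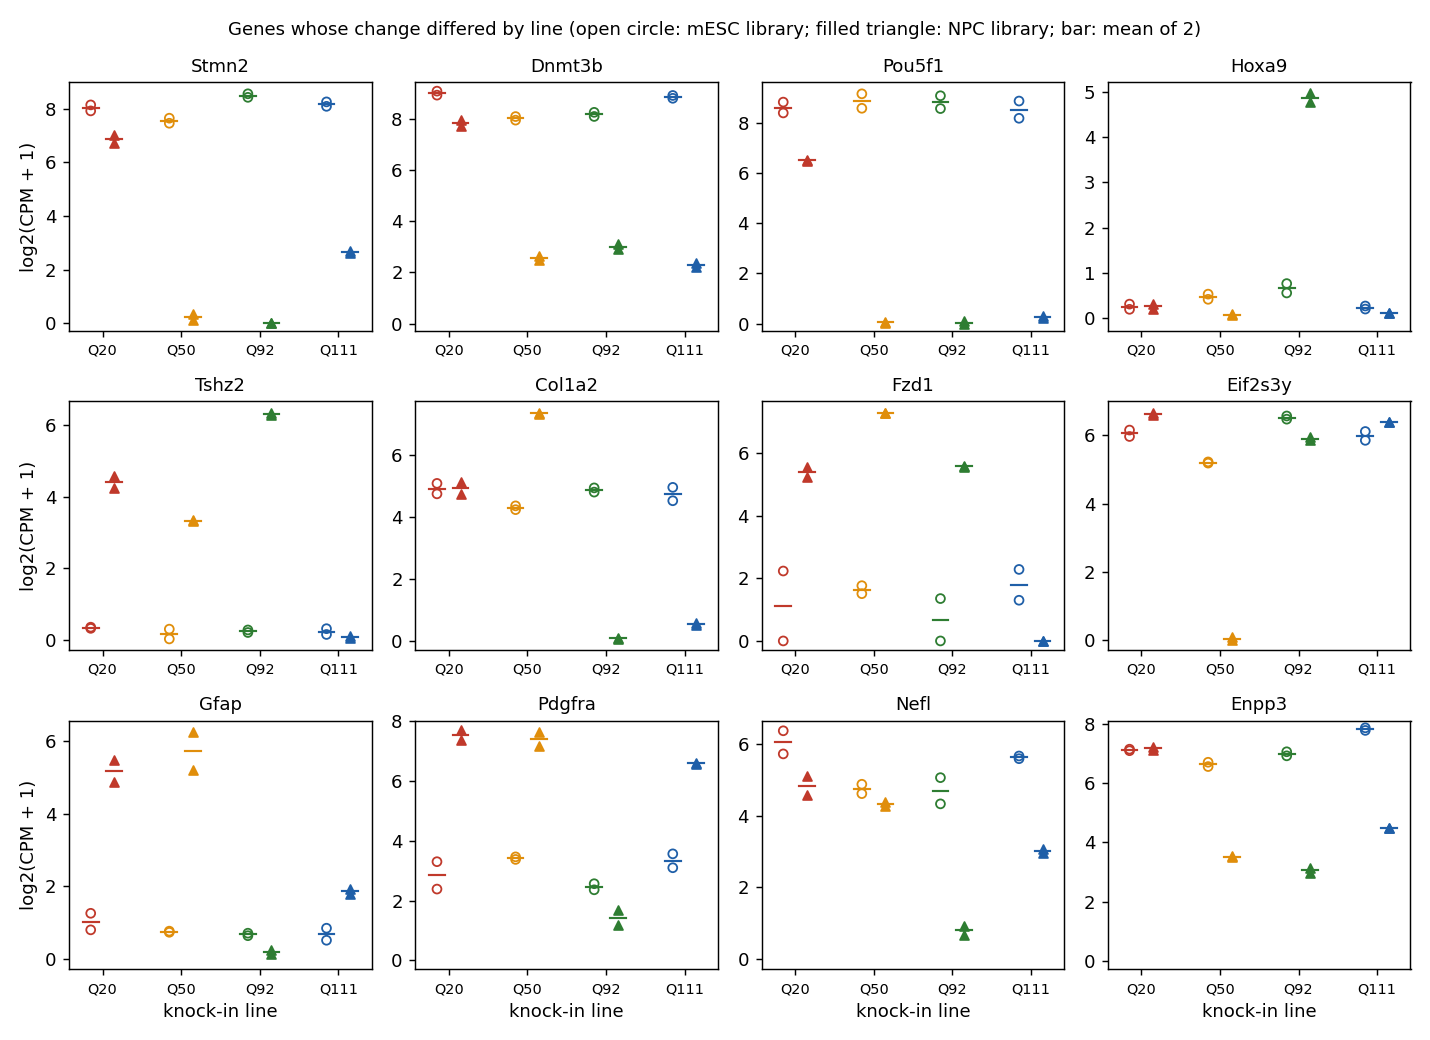
Levels of 12 genes as log2(CPM + 1) in each line, with open circles for mESC libraries, filled triangles for NPC libraries and bars for the mean of 2. Stmn2, Dnmt3b and Pou5f1 stay high in Q20 NPC alone, Hoxa9 is high in Q92 NPC alone, Tshz2 is near 0 in Q111 NPC, and Col1a2 is above its mESC level in Q50 NPC and below it in Q92 and Q111 NPC.

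Stmn2 (stathmin 2, which regulates microtubules in growing axons) and Eif2s3y (a translation factor on the Y chromosome) had the smallest p for this difference. Stmn2 was 278 CPM (176 to 378) in mESC and 104 and 131 CPM in Q20, 0.260 and 0.0964 in Q50, 0.0164 and 0 in Q92 and 5.46 and 5.22 in Q111 NPC. It fell by 1.16 in Q20 and by 5.52 to 8.49 in the other lines (adjusted p of the difference = 3.15e-07). Dnmt3b showed the same split: 375 CPM (246 to 541) in mESC, 213 and 246 CPM in Q20 NPC and 3.58 to 7.61 in the other 6, with falls of 1.16 in Q20 and 5.17 to 6.58 elsewhere (adjusted p = 5.72e-07). Its promoter, printed above, was the richest in CpG of the 4, and a link between CpG and the line difference was not tested. Enpp3, an ectonucleotidase, was also kept in Q20 NPC at 141 and 150.3 CPM, with a change of 0.06 against -3.95 to -3.12 in the others (adjusted p = 1.14e-06), a difference that was not called without Q20 (adjusted p = 0.0572). Scaled together with the other 8 libraries, Dnmt3b stood at 4.78 and 7.30 CPM in WT NPC and 4.82 and 6.47 in KO NPC. Stmn2 stood at 0.180 and 0.357 CPM in WT NPC and 0.0490 and 0.0267 in KO NPC, so the levels of Q20 NPC were seen in neither.

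In Q50 NPC the Y-linked genes that were looked at were near 0. Eif2s3y was 35.5 and 36.4 CPM in Q50 mESC and 0.0601 and 0 in Q50 NPC, against 57.5 to 100.4 in the other NPC libraries. The histone demethylase gene Uty was 0.0200 and 0 CPM in Q50 NPC against 40.2 to 73.9 in the other lines. The helicase gene Ddx3y was 0.0601 and 0.0723 CPM there against 56.4 to 90.3, so that 3 Y-linked genes were close to 0 in Q50 NPC and in no other NPC group. Kdm5d, another Y-linked histone demethylase, was 43.2 and 46.6 CPM in Q111 NPC and at most 0.277 in the other 6 NPC libraries, against 1.91 CPM (0.497 to 4.04) in mESC. Uty, Ddx3y and Kdm5d were looked at after the values of Eif2s3y were seen.

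Further genes stood apart in NPC of 1 line. Hoxa9, a posterior Hox gene, was 30.5 and 26.6 CPM in Q92 NPC and at most 0.689 in each of the other 14 libraries (adjusted p of the line difference = 5.72e-07). In KO NPC it was 24.8 and 31.99 CPM. Tshz2, a zinc finger factor, was 17.9 and 23.0 CPM in Q20, 9.19 and 8.91 in Q50, 77.4 and 80.6 in Q92 and 0.0403 and 0.0706 in Q111 NPC (adjusted p = 1.03e-06). Sulf1, a heparan sulfatase, fell by 0.61 in Q20, 2.45 in Q50, 6.04 in Q92 and 6.13 in Q111 (adjusted p = 5.72e-07). Nxf3, an X-linked gene of the RNA export factor family, was 134 and 139 CPM in Q20 NPC and at most 1.48 in the others, with changes of 2.87 in Q20 and -4.08 to -1.84 elsewhere. Ddx28 was 0 CPM in both Q50 NPC libraries and 29.4 to 41.2 in the other NPC, and it is a gene with 1 exon.

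A change of at least 2-fold in opposite directions was called for 141 genes (1.01%). Col1a2, a chain of type I collagen, had the widest range among them: it was 26.3 CPM (17.8 to 32.8) in mESC and 158 and 163 CPM in Q50 NPC, 33.5 and 25.9 in Q20, 0.0493 and 0.0775 in Q92 and 0.430 and 0.494 in Q111. Its changes were 3.04 in Q50, 0.02 in Q20, -4.78 in Q92 and -4.19 in Q111 (adjusted p of the difference = 4.48e-07). Col1a1, the other chain, rose by 2.36 in Q50 and fell by 3.54 in Q92 and 3.07 in Q111, so the 2 chains moved in parallel. Fzd1, a Wnt receptor with 1 exon, was at 0 in both Q111 NPC libraries and rose by 4.28, 5.66 and 4.91 in the other lines. Fndc3c1, on the X chromosome, rose by 4.68 in Q50 and fell by 1.76 in Q92. B3gnt2, a glycosyltransferase, differed widely between replicates, with 7.19 and 45.4 CPM in the Q92 mESC libraries and 7.08 and 0 in those of Q111, and its line difference was lost in 13 of 32 alternative analyses (adjusted p up to 0.948, without Q92). Without Q20 the count of such genes was 68, without Q50 92 and without Q92 88. It was 49 with a pseudocount of 5, 243 with a pseudocount of 0.25 and 275 with edgeR.

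Line by line, 7386 genes were called in Q20, 7814 in Q50, 7149 in Q92 and 7002 in Q111. The change was at least 2-fold upward for 20.3% of genes in Q20, 21.2% in Q50, 18.1% in Q92 and 18.2% in Q111, and downward for 16.3%, 18.3%, 16.7% and 15.9%. Changes of at least 2-fold in the same direction in all 4 lines were found for 1398 genes upward (9.99%) and 1122 downward (8.02%). As a description across the genes tested, which are not independent replicates, Pearson's r between the changes of pairs of lines was 0.786 for Q20 with Q92, 0.789 for Q20 with Q111, 0.835 for Q20 with Q50, and 0.848 to 0.863 among Q50, Q92 and Q111. The lines share their processing, scaling and culture protocol.

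In WT cells the change from mESC to NPC differed from the mean knock-in change for 330 of 14105 genes (2.34%), 155 with a higher and 175 with a lower change in the knock-in lines. WT has 2 libraries for each cell type, and 1860 genes had an unadjusted p under 0.05. The count was 1000 with a block for the replicate number within each cell type, and 195 among genes averaging 5 CPM or more. Mageb16, an X-linked melanoma antigen family gene, had the largest difference: it was 39.4 and 31.2 CPM in WT NPC and at most 0.215 in the 8 knock-in NPC libraries, with 10.96 to 47.3 in knock-in and 41.4 and 9.30 in WT mESC, a difference in change of -5.50 ± 0.71 (adjusted p = 0.000555). In KO NPC Mageb16 was 14.1 and 16.4 CPM, between the WT and the knock-in values. St6gal2, a brain sialyltransferase, was 132 and 58.2 CPM in WT NPC and 0.410 to 30.0 in knock-in NPC (-5.05 ± 0.45, adjusted p = 2.69e-05), lowest in Q92 and Q111. Tenascin C (Tnc), a matrix protein of the neural stem cell niche, was 0.464 and 4.00 CPM in WT mESC and 13.1 to 150.2 in knock-in mESC (-5.00 ± 1.13, adjusted p = 0.0290), and within the knock-in mESC it was highest in the libraries numbered 2. The call for Tnc was lost in 8 of 28 alternative analyses (adjusted p up to 0.0562, with a pseudocount of 5).

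In the other direction, B3galnt1, a glycosyltransferase, was 0.919 and 1.95 CPM in WT NPC and 3.02 to 20.3 in knock-in NPC, and 35.7 and 25.8 in WT mESC (3.63 ± 0.55, adjusted p = 0.00190). Cemip, a hyaluronan-degrading protein, was 0.252 and 1.81 CPM in WT NPC, 50.1 and 50.6 in Q50 NPC and 0.524 and 0.806 in Q20 NPC, so the knock-in lines were not alike (3.58 ± 0.41, adjusted p = 0.000239). Amer1, a Wnt pathway regulator on the X chromosome, was 5.23 and 10.8 CPM in WT NPC and 13.8 to 82.4 in knock-in NPC (3.47 ± 0.83, adjusted p = 0.0384), and its call was lost in 11 of 28 alternative analyses (adjusted p up to 0.0616, with edgeR). Pou5f1, by contrast, was 0.361 and 0.406 CPM in WT NPC and 0.0588 and 0.0623 in KO NPC, so that its level in Q20 NPC was seen in no other NPC of the series. Which of these differences come from the repeat, and which from the origin or history of the WT cells, cannot be told apart in this design. Some fibroblast genes were also lower in WT than in knock-in mESC, the latter as scaled over 16 libraries. Thbs1 was 9.62 and 13.4 CPM in WT mESC and 104 to 267 in knock-in mESC. For Tagln these values were 3.08 and 3.39 against 23.1 to 144.5 CPM. The part of fibroblast RNA in the WT comparison was not tested.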

How the data were processed

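RNA from knock-in mESC and NPC was sequenced on a NextSeq 500 as paired-end 75 bp reads, per the labels' protocols. The authors deposited 1 table per cell type with a normalised signal per gene, close to CPM. Per the submitters' processing notes, CASAVA 1.8, STAR and the GRCm38.p6 genome were used; the counting tool, strand setting and gene filter are not given in the sources used here. Whole reads were recovered from the deposited values for 100% of entries (tolerance 0.01 reads), and the tables were joined by gene ID: 15572 genes were shared, 1929 were in the mESC table alone and 452 in the NPC table alone. The deposited tables were normalised separately, so CPM was recomputed over the 16 libraries with joint TMM scaling (edgeR 4.0.16). Positions follow GENCODE M21 on GRCm38 and promoters RefSeq on GRCm38.p6, matched for 10858 of 13989 genes.

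Genes with at least 1 CPM in at least 2 libraries were tested with limma 3.58.1 in R 4.3.3 (variance trend) on log2(CPM + 1), with the line as block, two-sided and with Benjamini-Hochberg adjustment over all genes tested. Differences by line were tested by the F test of the interaction of line and cell type. Changes within lines came from the model of 8 group means, and the WT comparison from that of 12 group means over all 24 libraries, so their spread is pooled. Tested on simulated data for the same 2 comparisons (13447 genes), the fits recovered 100% of 4-fold changes between cell types and 95% of 4-fold changes in 1 line. The simulation gave every gene the same dispersion and no difference between first and second libraries. It changed only genes averaging at least 5 CPM. These shares therefore do not give the power of the tests in the real libraries. Named genes are Htt, the 10 largest rises and falls with at least 5 CPM and no overlap, the 10 smallest interaction p, the 6 widest opposite changes, up to 6 members of each list and 3 genes each way against WT; other list members are named as examples, chosen after their values were seen, and 1 gene under the rule is not reported here. The members and lists were chosen with earlier results of these data known. Alternatives were other scalings, pseudocounts, filters and tools (edgeR, DESeq2 1.42.0), other blocks and leaving out lines or libraries. Depth was 48525333 to 84353617 recovered reads per library.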

Additional observations from a re-analysis of the deposited data

Results flagged for a closer look

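For each named gene, the 8 libraries of a cell type were searched for 1 library far from its neighbours. Of 212 such groups, 9 (4.25%) held one. The cut-off is set to flag about 1 in 20 groups of alike, independent libraries. These came from 4 lines and the mESC replicates differed, so the share cannot be set against chance. Of the 9, 5 were mESC Q20 replicate 2. It stood above the other 7 mESC libraries for Gpm6b (29.0 CPM), Ntrk2 (9.58 CPM), Gfap (1.38 CPM), Nkx2-2 (0.790 CPM) and Ppargc1a (1.06 CPM), genes that rose in NPC. In mESC Q50 replicate 2 Hey1 stood below the other 7 at 1.36 CPM. Among NPC, Q20 replicate 2 stood above the other 7 for Rnf17 (0.295 CPM) and Lefty2 (0.120 CPM) and Q20 replicate 1 for Zfp980 (0.541 CPM), genes that fell in NPC and were near 0 there.

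The change from mESC to NPC differed between lines by the interaction test for the genes that follow, given with the gap between the highest and the lowest line change on the log2 scale. Q20 was the line whose change was farthest from the others for Stmn2 (7.33), Nxf3 (6.95), Pou5f1 (6.71), Lin28a (6.38), Sulf1 (5.52), Dnmt3b (5.42), Enpp3 (4.01), Fgfr3 (3.47), Ccne2 (3.19), Khdrbs2 (2.88), Hey2 (2.86), Slc2a3 (2.47), Egfr (2.47), Pcna (1.86) and Heyl (1.60). Stem cell genes were thus not the whole of it: Fgfr3, Hey2, Heyl and Khdrbs2 were highest in Q20 as well. A gap can come from either cell type or from both. Egfr was 35.5 and 35.0 CPM in Q20 mESC against 11.2 to 19.0 in the other mESC libraries. In NPC it was 316.5 and 335.5 CPM in Q20 against 475.5 to 959.2 in the other lines. Q50 was the farthest line for Col1a2 (7.82), Fndc3c1 (6.43), Col1a1 (5.90), Eif2s3y (5.73), Ddx28 (5.22), Postn (4.76), Hk2 (2.84) and Gata4 (2.17). Postn and both collagen chains are matrix genes of fibroblasts and were higher in Q50 NPC than in Q50 mESC.

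Q92 was the farthest line for B3gnt2 (6.12), Hoxb9 (5.90), Pdgfra (5.72), Gfap (5.48), Aldh1l1 (5.07), Ntrk2 (5.05), Hoxa9 (4.63), Nefl (3.48) and Rhox5 (2.56). Among these the glial genes Pdgfra, Gfap, Aldh1l1 and Ntrk2 were lowest in Q92 NPC and the posterior Hox genes highest. Q111 was the farthest line for Fzd1 (7.45), Tshz2 (6.24), Xlr3a (5.91), Ttyh1 (3.15), Uhrf1 (2.37), Mbnl3 (2.20) and T (1.69). Against WT cells, the mean knock-in change was higher for B3galnt1 (3.63), Cemip (3.58) and Amer1 (3.47) and lower for Mageb16 (-5.50), St6gal2 (-5.05) and Tnc (-5.00).

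Genes present in 1 deposited table alone were not tested but held clear signal. In the mESC table the stem cell genes Dppa5a, L1td1 and Tdh had mean deposited values of 566, 522 and 421 CPM over the 8 knock-in libraries. In the NPC table the progenitor genes Pou3f3 and Sox3 and the young neuron gene Dcx had 172, 15.6 and 13.8 CPM.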

How the results depend on the processing

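The count of genes changed by 2-fold or more and the counts called in each line stayed within 1.5 times under all alternatives run. With 1 mean value per line and cell type, 7743 genes were called over all lines, against 9659. Leaving out single libraries gave 9336 to 9564 genes called, 5014 to 5151 at 2-fold, 2025 to 3147 for a line difference, 121 to 163 in opposite directions and 242 to 349 against WT; where this left 1 library in a group, that library was assumed to vary like the others. The count in opposite directions was 243 with a pseudocount of 0.25, 49 with a pseudocount of 5, 275 with edgeR, 68 without Q20, 92 without Q50 and 88 without Q92. The count for a line difference was 1474 without Q20 and 6152 without the 4 mESC libraries numbered 2, a setting chosen after seeing the data. With the filter set at an average of 5 CPM, the count against WT was 195. Under upper-quartile scaling, the Q111 line had 2897 genes higher and 4172 lower, against 3634 and 3368.

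Replicate numbers did not pair libraries across cell types: deviations of same-numbered libraries correlated at -0.0432 to 0.0416 over 16 pairs, and at 0.486 to 0.560 among mESC of different lines. With the replicate block, 9817 genes were called over all lines, 3665 for a line difference, 160 in opposite directions and 456 against WT. With the replicate block within cell type these were 10071, 6551, 170 and 1000, and the cause was not tested further. Among named genes, no change over all lines and no difference from the WT change reversed its sign. For line differences this check could show no reversal, since the gap between line changes has no sign. What limits these results is 2 libraries per group, 1 line per repeat length, separately filtered tables and genes with 1 exon that read 0 in some libraries.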

Other observations

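The stem cell genes kept in Q20 NPC were an uneven set. As a percentage of the mean in Q20 mESC, Lin28a stood at 54%, Trim71 and Lin28b at 42%, Alpl at 24.6%, Sall4 at 23.7%, Pou5f1 at 22.9%, Zscan10 at 15.4% and Epcam at 10.7%, with Klf4 at 9.77% and Klf5 at 8.39%. Nanog stood at 3.89%, Cdh1 at 2.54%, Esrrb at 0.911%, Tbx3 at 0.358%, Tdgf1 at 0.094% and Fbxo15 at 0.066%. For Esrrb, Klf2, Nr5a2 and Tbx3 the share in Q50 NPC (1.57%, 1.46%, 6.97% and 2.99%) was above that in Q20 NPC (0.911%, 1.23%, 0.659% and 0.358%). Several of the higher shares were not confined to Q20. Alpl stood at 34.3% in Q50 NPC, Klf4 at 17.1% in Q92 and 21.8% in Q111, Trim71 at 14.3% in Q92 and Lin28b at 19.2% in Q111.

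Among genes in the mESC table alone were also Zfp42 and Dnmt3l, the partner of the de novo DNA methyltransferases, with mean deposited values of 364 and 279 CPM in the knock-in lines. Replication-dependent histone genes were in 1 table alone as well, such as Hist1h1d in the mESC table and Hist1h1e in the NPC table, with values that ran from 0 to 1457 CPM and from 0 to 913 CPM between libraries of the same cell type.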
